A study of Mus musculus with 20 samples.

Results

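The genes described here are 40 genes of DNA replication and mitosis, taken by gene symbol from the 38924 genes of a liver RNA-seq table: 17 that prepare or carry out the copying of DNA and 23 that act when the copied chromosomes are separated. All 40 symbols were found in the table. Liver RNA was sequenced from 20 male mice, 5 per group, bought at 5 weeks of age, acclimated for 1 week and then fed for 12 weeks. The groups were C57BL/6J mice (WT) on control diet (NDWT), mice labelled TSP-1 null on control diet (NDKO), and the same genotypes on a high fat diet that lacks choline and is low in methionine (CDAHFD), named HFWT and HFKO. TSP-1 null mice lack thrombospondin-1, a secreted matrix glycoprotein, in every cell from conception, so an effect on the liver need not start there. The purpose was to learn how a diet that produces steatohepatitis, and the loss of TSP-1, change the liver. The values are FPKM, fragments scaled to the length of the gene and to the total of each library, which allows levels of different genes to be compared.

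A hepatocyte in a healthy adult liver rarely divides, and the liver enters the cell cycle after injury or loss of tissue. Replication genes are switched on at the entry to S phase, largely by E2F factors, and mitotic genes later, in G2 and M phase, when the DREAM complex leaves their promoters and B-MYB and FOXM1 take its place. A level in whole liver is a mean over all its cells, so fewer cycling cells and less RNA per cycling cell cannot be told apart.

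Libraries held 15641545 to 23276322 fragments. Hepatocyte markers summed to between 26354 and 46272 FPKM in every library. Thbs1, the gene of TSP-1, did not follow the labels on the control diet: it lay at 0.17, 0.326, 0.268, 0.058 and 0.165 FPKM in NDWT and at 1.005, 1.5, 0.986, 1.895 and 1.13 in NDKO, higher in the libraries labelled TSP-1 null (log2FC 2.28 ± 0.24, SE, limma FDR = 1.02e-05). On CDAHFD it ranged from 3.46 to 6.10 FPKM in HFWT and from 3.05 to 4.40 in HFKO. A value per gene does not say which exons the fragments came from. The genotype groups are therefore described as the libraries labelled TSP-1 null throughout. HFKO library 5 stood apart from its group: it was the highest of the 5 HFKO libraries for 23 of the 23 mitotic genes and for 15 of the 17 replication genes. The main counts and medians that use it are also given without it. Estimates for single genes include it unless stated otherwise.

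The promoters of these genes carry the letters by which the 2 classes are usually told apart, and 7 of them are shown: replication promoters with E2F words (Mcm6, Mcm5), mitotic promoters with CHR words (Cdc20, Plk1), a mitotic promoter with both (Cdk1), and those of Pcna and Tk1, whose values differ from the rest. RefSeq promoter sequences (GRCm38.p6, 250 bases before to 50 after the start) matched 33 of the 40 genes by symbol. Aurkb, Ccna2, Foxm1, Kif20a, Mcm4, Pole and Tpx2 were not matched. The motifs were searched on both strands. E2F words were TTCCCGC, its variant with the letters TTGGCGC, and another variant with the letters TTCGCGC, and these can overlap each other. Words of the cell cycle homology region (CHR), to which DREAM binds, were TTTGAA and the related word TTTAAA. The box bound by NF-Y was searched as CCAAT. The 200 bases before the start are printed 5′ to 3′ on the strand of the gene, with every match in capitals, for Mcm6 (chr1:128359706-128359905, minus strand), Mcm5 (chr8:75109309-75109508, plus strand), Pcna (chr2:132253181-132253380, minus strand), Tk1 (chr11:117826015-117826214, minus strand), Cdk1 (chr10:69352913-69353112, minus strand), Cdc20 (chr4:118437344-118437543, minus strand) and Plk1 (chr7:122159235-122159434, plus strand).
Mcm6: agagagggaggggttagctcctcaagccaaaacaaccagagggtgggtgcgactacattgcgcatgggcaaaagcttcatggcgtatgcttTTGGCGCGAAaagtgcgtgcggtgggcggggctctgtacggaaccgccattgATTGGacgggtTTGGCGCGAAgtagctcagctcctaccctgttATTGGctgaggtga
Mcm5: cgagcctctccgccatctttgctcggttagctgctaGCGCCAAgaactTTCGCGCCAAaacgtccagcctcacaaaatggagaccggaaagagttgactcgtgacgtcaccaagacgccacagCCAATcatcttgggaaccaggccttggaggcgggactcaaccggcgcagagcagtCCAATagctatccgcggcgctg
Pcna: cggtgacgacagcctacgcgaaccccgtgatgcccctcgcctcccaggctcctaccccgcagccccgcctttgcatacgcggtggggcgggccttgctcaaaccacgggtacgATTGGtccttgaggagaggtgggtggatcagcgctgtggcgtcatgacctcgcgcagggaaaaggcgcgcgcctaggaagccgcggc
Tk1: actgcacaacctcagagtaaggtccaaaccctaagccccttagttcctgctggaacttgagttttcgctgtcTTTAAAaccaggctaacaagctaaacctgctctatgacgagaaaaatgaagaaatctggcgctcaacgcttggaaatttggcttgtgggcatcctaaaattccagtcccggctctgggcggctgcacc
Cdk1: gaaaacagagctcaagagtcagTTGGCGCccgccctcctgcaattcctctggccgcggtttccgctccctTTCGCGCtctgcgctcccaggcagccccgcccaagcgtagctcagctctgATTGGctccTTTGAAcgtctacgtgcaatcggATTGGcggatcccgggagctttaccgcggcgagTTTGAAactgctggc
Cdc20: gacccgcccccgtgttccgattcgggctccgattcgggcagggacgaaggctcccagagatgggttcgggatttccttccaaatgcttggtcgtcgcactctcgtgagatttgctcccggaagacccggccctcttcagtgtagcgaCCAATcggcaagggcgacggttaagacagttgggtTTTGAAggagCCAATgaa
Plk1: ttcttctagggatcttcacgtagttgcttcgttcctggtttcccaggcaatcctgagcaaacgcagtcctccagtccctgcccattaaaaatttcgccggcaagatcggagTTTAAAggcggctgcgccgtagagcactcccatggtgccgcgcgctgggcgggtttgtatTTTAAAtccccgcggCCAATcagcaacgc

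In the Mcm6 promoter the overlapping words TTGGCGC and GCGCGAA, the latter an E2F word read on the other strand, started at position -109 and -106 and again at -46 and -43, counted back from the start. The Cdc20 promoter held TTTGAA at -18 with CCAAT on either side, and Plk1 held TTTAAA at -89 and at -29. Cdk1 had E2F words, CHR words and CCAAT together. Mcm5 had E2F words and CCAAT in the bases shown and a TTTAAA further out, at -221. Pcna had a CCAAT box but none of the E2F or CHR words, and Tk1 had only a TTTAAA.

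Over all 300 bases, an E2F word was found in 58.8% of the 17 promoters of replication genes and in 21.1% of the 19 of mitotic genes, against 8.07% of all 32851 promoters of the table. The 17 promoters belong to 15 genes and the 19 to 18 genes, as Mcm7, E2f2 and Prc1 have several. Counted by gene, the E2F shares were 60%, 22.2% and 9.20%. A CHR word was found in 94.7% of the mitotic and 35.3% of the replication promoters, against 27.6% of all. CCAAT was present in 89.5% of the mitotic and 76.5% of the replication promoters, against 37.4% of all. CHR and CCAAT stood together in 84.2%, 29.4% and 10.7% respectively. A match is a string of letters and not a measured site.

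**Figure D1:**
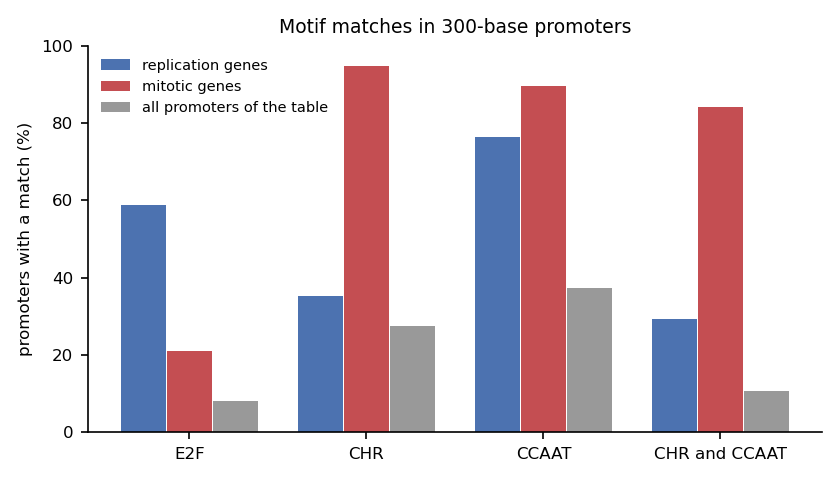
Share of promoters (y axis, percent, 300 bases each) with a match to the E2F words, the CHR words, CCAAT, and CHR with CCAAT (x axis), for 17 promoters of replication genes (blue), 19 of mitotic genes (red) and all 32851 promoters of the RefSeq table (grey). The 17 and 19 promoters belong to 15 and 18 genes. The E2F words were most frequent in the replication promoters (58.8%) and the CHR words in the mitotic promoters (94.7%).

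Nearly all of these genes were higher on CDAHFD than on the control diet, in both genotypes. limma was run on log2(FPKM + 0.1), and differentially expressed genes (DEGs) had to pass a Benjamini-Hochberg FDR of 0.05 with a log2FC beyond 0.58 in either direction. Cdc6, Pole, Bub1, Ttk and Cenpf were too low for the main test, which asked for FPKM above 0.5 in at least 5 libraries, and 22 of the 35 that passed did so only because CDAHFD libraries counted towards the 5. Counts are therefore given first for a fit of all 25536 genes above 0 in any library, in which all 40 could be tested. There, 16 of 17 replication genes and 22 of 23 mitotic genes rose in HFWT against NDWT, where 32.5% of all genes rose. In HFKO against NDKO 16 of 17 and 23 of 23 rose, against 29.7% of all genes. No member fell. Without HFKO library 5 the last counts were 14 of 17 and 23 of 23.

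In the main test 14 of 15 replication genes and 19 of 20 mitotic genes rose in WT (44.1% of the 14524 genes tested rose), and 14 of 15 and 20 of 20 rose in the libraries labelled TSP-1 null (41.9% of all). In the fit of all 40, the median log2FC of the replication genes was 1.45 in WT and 1.68 in the libraries labelled null, and that of the mitotic genes was 2.02 and 2.61, beside medians of 0.38 and 0.34 over all genes of that fit. Without HFKO library 5 the medians in the libraries labelled null were 1.59 for replication and 2.42 for mitotic genes, beside 0.33 over all genes. The groups did not overlap for 15 replication and 22 mitotic genes in WT (34% of genes above 0 were higher in this way) and for 15 and 23 genes in the libraries labelled null (34.4%). The difference between the 2 classes of gene was not tested.

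More than these genes rose with the diet, and some calls depend on the scaling. The median log2FC over all genes of the main test was 0.53 in WT and 0.50 in the libraries labelled null, and median of ratios scaling brought it to -0.01 in both. Under that scaling 11 replication genes and 18 mitotic genes rose in WT (22.7% of all genes rose) and 12 and 20 in the libraries labelled null (22.2% of all). Mcm7 and Cdc45 were no longer called on either genotype, Cdc25a and Plk4 were lost in WT, and Tk1 was called lower. Quantile normalization left 9 replication and 12 mitotic genes called higher in WT (17.3% of all genes) and brought the median of the mitotic genes there from 2.06 in the main test to 0.89. It also removed calls of genes with a larger log2FC, among them Ccnb1 (2.02 to 0.76), Aurkb (1.98 to 0.72), Foxm1 (1.94 to 0.59) and Cenpe (1.86 to 0.31).

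**Figure D2:**
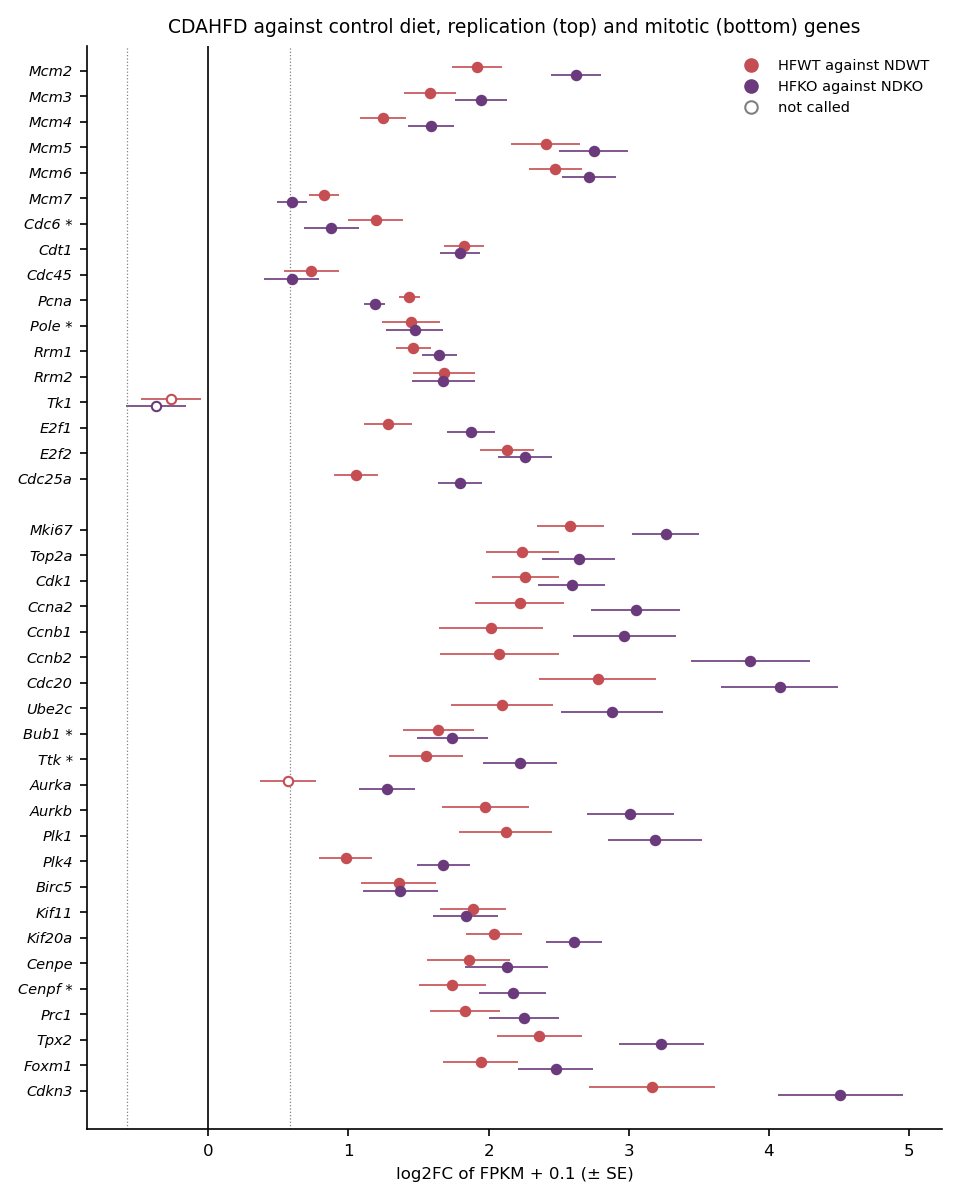
Log2FC of FPKM + 0.1 (x axis, ± SE) of CDAHFD against control diet for the 17 replication genes (top) and 23 mitotic genes (bottom), in WT (red) and in libraries labelled TSP-1 null (purple). Filled points were called, open points were not, dotted lines mark ±0.58, and an asterisk marks the 5 genes tested only in the fit of all genes above 0. Tk1 is the only gene left of 0.

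The MCM2-7 proteins form the ring that unwinds DNA at the replication fork. All 6 of their genes rose. Mcm6 lay at 1.096, 1.22, 1.47, 0.763 and 1.16 FPKM in NDWT livers, 0.835, 0.41, 0.811, 0.733 and 1.16 in NDKO livers, 7.36, 7.23, 7.43, 5.88 and 5.76 in HFWT livers and 5.15, 5.42, 4.695, 5.35 and 7.31 in HFKO livers. Every CDAHFD library was above every control library, and the log2FC was 2.48 ± 0.19 (SE, FDR = 1.08e-09) in WT and 2.72 ± 0.19 (SE, FDR = 3.78e-10) in the libraries labelled null. Mcm7 was the member of the ring with the highest mean over the 20 libraries and changed least, from 2.87 ± 0.339 FPKM in NDWT and 2.93 ± 0.291 in NDKO to 5.16 ± 0.534 in HFWT and 4.49 ± 0.629 in HFKO (SD, n = 5). Its libraries were 3.096, 3.36, 2.68, 2.55 and 2.68 FPKM in NDWT livers, 3.06, 2.98, 3.19, 2.43 and 2.96 in NDKO livers, 5.68, 5.24, 5.37, 5.24 and 4.26 in HFWT livers and 4.45, 3.55, 4.698, 4.44 and 5.3 in HFKO livers. The groups by diet did not overlap, but the log2FC of 0.82 and 0.59 was close to the median of all genes, and the second was not called without HFKO library 5 (0.53), HFKO library 3 (0.58) or NDKO library 4 (0.53). Mcm7 overlaps Ap4m1 and Cops6 on the opposite strand over 321 and 64 of its 4426 exon bases, and the strand setting of the count is not given in the sources used here. Mcm7 transcripts also share 1102 of their 4523 distinct 31-base stretches with Gm5487, for which no FPKM was found. Mcm2, Mcm3, Mcm4 and Mcm5 rose by a log2FC of 1.92, 1.58, 1.25 and 2.41 in WT and of 2.62, 1.95, 1.59 and 2.75 in the libraries labelled null.

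CDC6 and CDT1 load the MCM ring onto origins, and CDC45 activates it. Cdt1 was measured at 1.14, 1.31, 1.69, 0.932 and 1.05 FPKM in NDWT livers, 1.44, 1.19, 1.22, 1.46 and 1.26 in NDKO livers, 5.09, 4.29, 4.304, 5.496 and 3.59 in HFWT livers and 4.95, 3.71, 4.72, 5.75 and 5.08 in HFKO livers. There was no overlap between diets, and the log2FC was 1.82 ± 0.14 (SE, FDR = 1.36e-09) in WT and 1.80 ± 0.14 (SE, FDR = 2.06e-09) in the libraries labelled null. Cdc6 was scarce, at 0.0462 ± 0.0232 FPKM in NDWT livers, 0.044 ± 0.02804 in NDKO livers, 0.2398 ± 0.0878 in HFWT livers and 0.165 ± 0.0594 in HFKO livers (SD, n = 5), with 1 to 10 fragments in each control library. In the fit of all genes above 0 its log2FC was 1.20 and 0.88. Cdc45 rose by 0.74 in WT and 0.59 in the libraries labelled null, with overlap between the diets in each. It shares 209 of 3506 exon bases with Ufd1 on the opposite strand, and the second value was not called without HFKO library 5 (0.49) or 1 (0.56), or without NDKO library 2, 3 or 4 (0.55 to 0.58).

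PCNA is the ring that holds the polymerases on DNA, and Pole encodes the catalytic subunit of the leading strand polymerase. Pcna had the highest level of all 40 genes in every group. It stood at 8.29, 9.74, 8.47, 8.28 and 8.31 FPKM in NDWT livers, 5.37, 5.59, 5.57, 5.24 and 5.65 in NDKO livers, 22.9, 23.3, 22.7, 23.8 and 24.3 in HFWT livers and 11.5, 12.5, 12.1, 11.5 and 15.9 in HFKO livers. The 4 groups did not overlap, in the order NDKO, NDWT, HFKO and HFWT, and the diet log2FC was 1.43 ± 0.07 (SE, FDR = 5.27e-12) in WT and 1.19 ± 0.07 (SE, FDR = 8.26e-11) in the libraries labelled null. Pole had 0.062, 0.107, 0.111, 0.089 and 0.090 FPKM in NDWT livers, 0.061, 0.043, 0.096, 0.039 and 0.168 in NDKO livers, 0.485, 0.471, 0.34, 0.494 and 0.337 in HFWT livers and 0.333, 0.309, 0.334, 0.367 and 0.668 in HFKO livers, with the CDAHFD libraries all above the control libraries and HFKO library 5 highest. Its log2FC in the fit of all genes above 0 was 1.45 and 1.47.

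Ribonucleotide reductase (Rrm1, Rrm2) makes deoxynucleotides and thymidine kinase (Tk1) salvages thymidine. Rrm1 rose by a log2FC of 1.46 in WT and 1.65 in the libraries labelled null, and Rrm2 by 1.68 and 1.68. Rrm2 was at 0.388, 0.562, 0.953, 0.778 and 0.832 FPKM in NDWT livers, 0.56, 0.413, 0.502, 0.655 and 0.893 in NDKO livers, 2.48, 2.38, 2.69, 2.32 and 2.11 in HFWT livers and 1.57, 1.96, 1.73, 2.1 and 3.598 in HFKO livers, with no overlap between diets. Tk1 was the exception among the replication genes. It read 2.81, 3.72, 2.91, 3.64 and 5.101 FPKM in NDWT livers, 3.88, 3.73, 3.02, 2.77 and 6.08 in NDKO livers, 2.82, 2.21, 3.46, 3.703 and 2.76 in HFWT livers and 2.72, 3.04, 2.299, 2.31 and 4.41 in HFKO livers, and the groups overlapped throughout. Its log2FC was -0.26 ± 0.21 (SE, FDR = 0.272) in WT and -0.37 ± 0.21 (SE, FDR = 0.125) in the libraries labelled null, and relative to the all-gene median it was -0.80 and -0.87. Under median of ratios scaling Tk1 was lower on CDAHFD, at -0.81 (FDR = 0.00259) and -0.89 (FDR = 0.00119). Tk1 overlaps Afmid on the opposite strand over 83 of 5198 exon bases.

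E2F1 and E2F2 drive S phase genes and CDC25A removes the inhibitory phosphates from the cyclin-dependent kinases. Cdc25a had the highest mean of the 3 and was at 1.66, 1.42, 1.35, 1.33 and 1.26 FPKM in NDWT livers, 1.02, 0.826, 1.24, 0.639 and 0.559 in NDKO livers, 2.89, 3.12, 2.73, 2.74 and 3.64 in HFWT livers and 3.81, 2.68, 3.27, 3.04 and 2.87 in HFKO livers. Every CDAHFD library lay above every control library, by a log2FC of 1.05 ± 0.16 (SE, FDR = 6.70e-06) in WT and 1.80 ± 0.16 (SE, FDR = 6.99e-09) in the libraries labelled null. E2f2 went from 0.171 ± 0.0548 FPKM in NDWT to 1.08 ± 0.183 in HFWT and from 0.117 ± 0.0518 in NDKO to 0.922 ± 0.127 in HFKO (SD, n = 5). Its single libraries held 0.141, 0.172, 0.219, 0.095 and 0.226 FPKM in NDWT livers, 0.109, 0.081, 0.077, 0.205 and 0.111 in NDKO livers, 1.38, 0.935, 0.98, 1.11 and 0.972 in HFWT livers and 0.909, 0.89, 0.865, 0.808 and 1.14 in HFKO livers. The log2FC of E2f2 was 2.13 and 2.26 and that of E2f1 1.28 and 1.88.

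**Figure D3:**
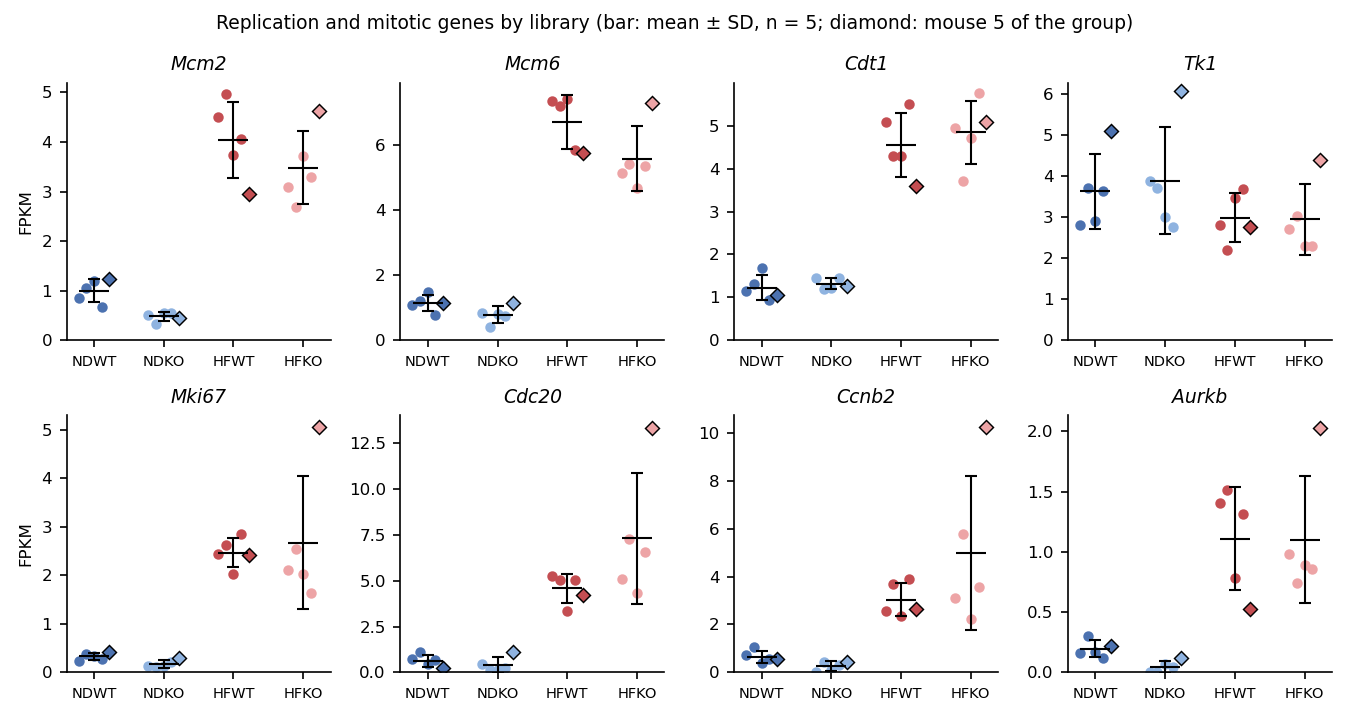
FPKM (y axis, from 0) in each library by group (x axis) for 4 replication genes (top) and 4 mitotic genes (bottom). Points are mice, the diamond is mouse 5 of each group, and bars give mean ± SD (n = 5). CDAHFD libraries lie above control libraries for all but Tk1, and HFKO library 5 is the highest for the mitotic genes.

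The mitotic genes were scarce in control liver. In NDWT only Aurka had a mean above 1 FPKM (1.102), and in NDKO no mitotic gene did. Summed over the 23 genes, the control libraries held 2.56 to 8.63 FPKM, HFWT 25.5 to 37.8 and HFKO 27.4 to 75.8, where the highest value is HFKO library 5 and the other 4 libraries reached 43.0. The 17 replication genes summed to between 24.97 and 29.2 FPKM in NDWT livers, 18.7 and 24.5 in NDKO livers, 65.7 and 77.8 in HFWT livers and 52.7 and 74.6 in HFKO livers. Without library 5 the HFKO replication sums ended at 54.0, below every HFWT library, but the lack of overlap rests on Pcna. The other 16 replication genes summed to 41.4 to 54.9 FPKM in HFWT and to 40.2 to 42.5 in HFKO without library 5. These ranges overlap through the lowest HFWT library alone. The mitotic sums of HFKO and HFWT overlapped with or without HFKO library 5.

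Ki-67 (Mki67) coats mitotic chromosomes and topoisomerase II (Top2a) untangles them. Mki67 lay at 0.235, 0.387, 0.34, 0.272 and 0.423 FPKM in NDWT livers, 0.13, 0.114, 0.122, 0.217 and 0.29 in NDKO livers, 2.43, 2.62, 2.02, 2.85 and 2.41 in HFWT livers and 2.11, 2.54, 2.02, 1.64 and 5.05 in HFKO livers. Diets did not overlap, and the log2FC was 2.58 ± 0.24 (SE, FDR = 1.24e-08) in WT and 3.27 ± 0.24 (SE, FDR = 6.16e-10) in the libraries labelled null. Top2a rose by 2.24 and 2.64.

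CDK1 with cyclin B drives entry into mitosis, and cyclin A2 acts before it. Cdk1 read 0.274, 0.209, 0.228, 0.135 and 0.349 FPKM in NDWT livers, 0.098, 0.115, 0.155, 0.20 and 0.258 in NDKO livers, 1.59, 1.82, 1.17, 2.05 and 1.04 in HFWT livers and 1.27, 1.37, 1.06, 1.47 and 2.42 in HFKO livers, and its log2FC was 2.26 ± 0.24 (SE, FDR = 7.18e-08) and 2.59 ± 0.24 (SE, FDR = 1.31e-08). Ccnb2 had the highest mean of these 4 genes, at 0.725, 1.05, 0.401, 0.567 and 0.553 FPKM in NDWT livers, 0, 0.428, 0.104, 0.325 and 0.449 in NDKO livers, 2.57, 3.69, 2.37, 3.904 and 2.67 in HFWT livers and 3.12, 5.77, 2.24, 3.58 and 10.2 in HFKO livers. NDKO library 1 held no Ccnb2 fragment and HFKO library 5 was far above the others. The log2FC of Ccnb2 was 2.08 ± 0.43 (SE, FDR = 2.20e-04) in WT and 3.87 ± 0.43 (SE, FDR = 1.45e-07) in the libraries labelled null. Ccna2 rose by 2.22 and 3.05 and Ccnb1 by 2.02 and 2.97. Ccna2 overlaps Exosc9 on the opposite strand over 510 of 4083 exon bases, and Ccnb1 shares sequence with processed copies such as Ccnb1-ps, which averaged 0.0163 FPKM.

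CDC20 and UBE2C belong to the machinery of the anaphase promoting complex, which BUB1 and TTK hold in check until the chromosomes are attached. Cdc20, the mitotic gene with the highest mean in both CDAHFD groups, was at 0.713, 1.09, 0.451, 0.655 and 0.242 FPKM in NDWT livers, 0.467, 0.118, 0.115, 0.234 and 1.14 in NDKO livers, 5.25, 5.06, 3.35, 5.02 and 4.21 in HFWT livers and 5.09, 7.29, 4.32, 6.55 and 13.3 in HFKO livers. Each CDAHFD library was above each control library. The log2FC was 2.78 ± 0.42 (SE, FDR = 6.74e-06) and 4.08 ± 0.42 (SE, FDR = 5.40e-08). Ube2c rose by 2.09 and 2.88. It overlaps Tnnc2, which averaged 0 FPKM, on the opposite strand over 592 of 2600 exon bases. Bub1 and Ttk, with at most 6 fragments in any control library, rose by 1.64 and 1.55 in WT and by 1.74 and 2.22 in the libraries labelled null in the fit of all genes above 0.

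The Aurora and Polo kinases order the steps of spindle and chromosome, PLK4 duplicates centrioles, and survivin (Birc5) works with Aurora B. Aurka was the mitotic gene least changed. It was at 0.917, 1.18, 1.24, 1.04 and 1.13 FPKM in NDWT livers, 0.90, 0.591, 0.803, 0.47 and 1.05 in NDKO livers, 1.94, 1.66, 1.93, 1.74 and 1.21 in HFWT livers and 1.72, 2.22, 1.32, 1.76 and 2.94 in HFKO livers. In WT its log2FC of 0.57 ± 0.20 (SE, FDR = 0.0161) was just under the fold threshold, which it passed without NDWT library 2 or 3 or HFWT library 5 (0.59 to 0.68), with the lowest HFWT library inside the NDWT range, and in the libraries labelled null it was 1.27 ± 0.20 (SE, FDR = 1.39e-05). Plk1 changed most of this group in WT, from 0.332, 0.408, 0.281, 0.212 and 0.182 FPKM in NDWT to 2.35, 1.81, 1.21, 2.14 and 0.735 in HFWT, and it went from 0.264, 0.18, 0.146, 0.057 and 0.359 in NDKO to 2.18, 2.496, 1.51, 2.18 and 5.07 in HFKO. Its log2FC was 2.12 ± 0.34 (SE, FDR = 1.27e-05) and 3.19 ± 0.34 (SE, FDR = 8.06e-08), and it shares 329 of 2222 stretches of 31 bases with the copy Plk-ps1, which averaged 0.227 FPKM. Birc5 rose by 1.36 and 1.37, Aurkb by 1.98 and 3.01 and Plk4 by 0.98 and 1.68.

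Kinesins, kinetochore and spindle proteins move and hold the chromosomes. Tpx2, which carries Aurora A to the spindle, read 0.101, 0.512, 0.12, 0.15 and 0.171 FPKM in NDWT livers, 0.031, 0.066, 0.057, 0.067 and 0.201 in NDKO livers, 1.32, 1.44, 1.11, 1.61 and 1.36 in HFWT livers and 0.978, 1.695, 1.44, 1.28 and 2.97 in HFKO livers. NDWT library 2 was high among the control libraries, yet under every CDAHFD library. The log2FC was 2.36 ± 0.30 (SE, FDR = 1.00e-06) and 3.23 ± 0.30 (SE, FDR = 1.76e-08). Kif20a, a kinesin of late mitosis, was at 0.17, 0.268, 0.237, 0.261 and 0.185 FPKM in NDWT livers, 0.191, 0.186, 0.155, 0.198 and 0.261 in NDKO livers, 1.16, 1.29, 1.16, 1.35 and 1.17 in HFWT livers and 1.13, 1.701, 1.57, 1.45 and 3.25 in HFKO livers and rose by 2.04 and 2.61, although 1271 of its 4338 exon bases overlap Cdc23 on the opposite strand. Kif11, Cenpe, Cenpf and Prc1 rose by 1.89, 1.86, 1.74 and 1.83 in WT and by 1.84, 2.13, 2.17 and 2.25 in the libraries labelled null. Prc1 overlaps Rccd1 on the opposite strand over 911 of 8225 exon bases.

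FOXM1 activates G2 and M phase genes, and Cdkn3 encodes a phosphatase of cyclin-dependent kinases. Cdkn3 had the largest log2FC of all 40 genes on each genotype. It read 0.222, 0, 0.218, 0.226 and 0 FPKM in NDWT livers, 0, 0, 0, 0 and 0.256 in NDKO livers, 1.803, 1.78, 0.766, 2.85 and 2.02 in HFWT livers and 1.99, 3.64, 2.44, 2.03 and 5.09 in HFKO livers. No control library held more than 4 fragments, so its log2FC of 3.17 ± 0.45 (SE, FDR = 3.29e-06) in WT and 4.51 ± 0.45 (SE, FDR = 3.66e-08) in the libraries labelled null depends on the constant added before the log. Foxm1 rose by 1.94 and 2.48.

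Markers of several cell types that are not hepatocytes moved with the diet. Of 8 macrophage markers 6 were called higher and 1 lower on each genotype, with summed levels of 153 to 257 FPKM on control diet and 743 to 1633 on CDAHFD. All 7 stellate cell markers rose (10.3 to 14.4 against 75.6 to 170 FPKM summed), as did all 5 cholangiocyte markers (12.4 to 18.0 against 181 to 488), all 5 B cell markers (1.07 to 6.18 against 6.11 to 11.0) and 6 of 7 T cell markers (1.38 to 5.45 against 4.47 to 21.2). Of 8 hepatocyte markers 3 fell in WT and 4 in the libraries labelled null. Of 6 endothelial markers 1 and 2 rose, with sums of 44.9 to 59.4 and 49.3 to 82.7 FPKM. Of the 6 erythroid markers tested no marker rose, and 1 fell in WT and 2 in the libraries labelled null. Over all genes tested 44.1% rose in WT and 41.9% in the libraries labelled null, a larger share than among the endothelial markers. The part of any cell type in the rise of the replication and mitotic genes was not tested.

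Other genes of the same processes moved the same way for the most part. Of 36 further replication genes 31 were tested, and 26 rose and 2 fell in WT, while 25 rose and 1 fell in the libraries labelled null. Over all 14524 genes tested 44.1% rose and 671 genes fell in WT. In the libraries labelled null 41.9% rose and 581 genes fell. Lig1, the ligase that joins lagging strand fragments, rose by a log2FC of 2.19 ± 0.16 (SE, FDR = 6.75e-10) in WT and 2.45 ± 0.16 (FDR = 2.00e-10) in the libraries labelled null. E2f8, an E2F repressor known for its role in hepatocyte polyploidy, fell by 1.67 (SE 0.35, FDR = 3.04e-04) and by 1.55 (SE 0.35, FDR = 6.34e-04) on the log2 scale. Mcm10, a replication factor, fell by 0.85 in WT (SE 0.18, FDR = 3.42e-04), with overlap between the groups. Of 44 further mitotic genes 37 were tested, and 34 rose on each genotype with none falling. Smc4 (1.60 and 1.35), a condensin subunit, and Mad2l1 (1.97 and 2.15), of the spindle checkpoint, were among the lowest FDR on both.

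On the control diet several of these genes were lower in the libraries labelled TSP-1 null. In NDKO against NDWT, 6 of 15 replication genes fell (Pcna, Mcm2, Cdc25a, E2f1, Mcm4 and Mcm5) and 2 of 20 mitotic genes fell (Plk4 and Aurkb), where 3.03% of the 14524 genes fell and 1.74% rose. No member rose. In the fit of all 40, the counts were 5 of 17 and 1 of 23, against 1.55% of all genes. There 14 replication and 22 mitotic genes had a log2FC below 0, with medians of -0.33 and -0.52 beside -0.01 over all genes. The groups did not overlap for 5 replication and 2 mitotic genes (3.99% of genes above 0 were lower in this way).

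Mcm2 lay at 0.854, 1.05, 1.2, 0.674 and 1.24 FPKM in NDWT and at 0.518, 0.326, 0.54, 0.557 and 0.455 in NDKO. All NDKO libraries were below all NDWT libraries, with a log2FC of -0.92 ± 0.18 (SE, FDR = 0.002499). E2f1 was at 0.817, 1.16, 1.09, 0.868 and 0.985 in NDWT and 0.507, 0.642, 0.407, 0.476 and 0.80 in NDKO, again without overlap, and its log2FC was -0.72 ± 0.17 (SE, FDR = 0.00953). Cdc25a, whose values are given above, did not overlap either, with a log2FC of -0.70 ± 0.16 (SE, FDR = 0.00675). Without NDKO library 5 its log2FC was -0.58, short of the fold threshold.

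Mcm4 had 0.91, 0.902, 1.36, 0.909 and 1.09 FPKM in NDWT and 0.432, 0.576, 0.76, 0.662 and 0.882 in NDKO, a log2FC of -0.59 ± 0.16 (SE, FDR = 0.0237) with no overlap. The Mcm5 groups overlapped, with a log2FC of -0.75 ± 0.25 (SE, FDR = 0.0494). Both are near the thresholds: the call of Mcm4 was lost without NDWT library 3 or 5 or NDKO library 1 or 2 (log2FC -0.47 to -0.57), and that of Mcm5 in 15 of the 20 fits with 1 mouse left out.

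Plk4 read 0.22, 0.164, 0.259, 0.199 and 0.256 FPKM in NDWT and 0.066, 0.098, 0.073, 0.085 and 0.135 in NDKO. These groups did not overlap, and the log2FC was -0.74 ± 0.19 (SE, FDR = 0.0141). Only 5 libraries, 2 of HFWT and 3 of HFKO, held Plk4 above 0.5 FPKM, so without any 1 of them it was not tested. Under quantile normalization its call was lost (log2FC -0.52, FDR = 0.148). Aurkb was at 0.195 ± 0.0712 FPKM in NDWT and 0.0466 ± 0.0504 in NDKO (SD, n = 5), where each library held at most 7 fragments, and the groups did not overlap. Its log2FC was -1.05 ± 0.31 (SE, FDR = 0.0317), and the call was lost without NDWT library 2, 3 or 5 or NDKO library 1, 2 or 4 (FDR = 0.0535 to 0.0847).

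NDKO library 5 was the highest of its group for 21 of the 23 mitotic genes. Without it 7 mitotic genes were called lower. Without HFKO library 5, which enters this comparison only through the shared variance and the filter on low values, 3 were. Plk4 was not tested there. The share of all genes called lower in these refits is not given here. In the fit of all genes above 0, 2 of 23 mitotic genes were lower without NDKO library 5, as were 452 of 25480 genes. Without HFKO library 5, 3 of 23 were, as were 399 of 25376 genes. With all libraries the main test gave Ccnb2 a log2FC of -1.27 ± 0.43 (SE, FDR = 0.0542) and Mki67 one of -0.67 ± 0.24 (SE, FDR = 0.07001). Neither was called in the main test, and both were called when either of these libraries was left out. Ccnb2 was also called without NDKO library 2 or HFKO library 3. Under median of ratios scaling 3 replication and 2 mitotic genes were lower, where 2.27% of all genes were lower and 2.4% higher, and the value of Pcna became -0.57, just inside the fold threshold. Of the markers in the 8 lists, 1 hepatocyte and 1 erythroid marker were called higher and 1 stellate cell marker lower. The sum of the hepatocyte markers was 35257 to 42389 FPKM in NDWT and 38984 to 46272 in NDKO.

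Among the further genes, 1 of 31 tested replication genes fell, Uhrf1 (log2FC -0.98 ± 0.28, SE, FDR = 0.0275), a reader of newly copied DNA, with overlapping groups. Of 37 mitotic genes 5 fell and none rose. Over all 14524 genes 3.03% fell and 1.74% rose, and 1 replication gene of 31 is near that share. Wee1, the kinase that holds CDK1 inactive, had a log2FC of -1.27 ± 0.27 (FDR = 0.00477), and the checkpoint kinase Bub1b one of -0.87 ± 0.23 (FDR = 0.0188). Pbk, a mitotic kinase, had -1.15 ± 0.32 (FDR = 0.0229). All 3 were without overlap.

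**Figure D4:**
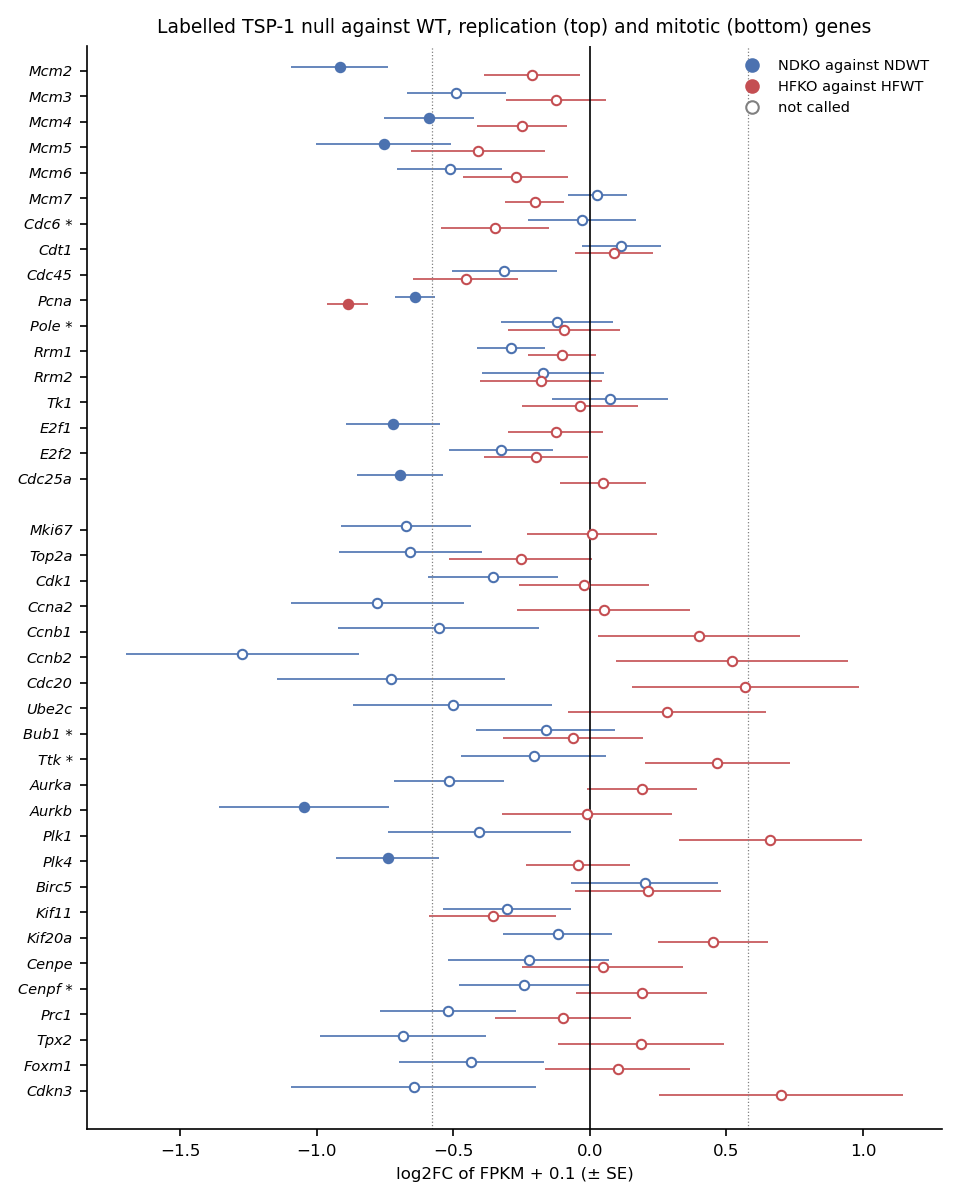
Log2FC of FPKM + 0.1 (x axis, ± SE) of libraries labelled TSP-1 null against WT for the 17 replication genes (top) and 23 mitotic genes (bottom), on control diet (blue) and on CDAHFD (red). Filled points were called and an asterisk marks genes tested only in the fit of all genes above 0. The called genes are Mcm2, Mcm4, Mcm5, Pcna, E2f1, Cdc25a, Aurkb and Plk4 on control diet and Pcna on CDAHFD.

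On CDAHFD only Pcna among the 40 genes was called between the genotypes. In HFKO against HFWT, 1 of 15 replication genes fell (0.33% of all genes fell and 0.165% rose) and limma called 0 of 20 mitotic genes, of which 1 had an unadjusted p under 0.05, as did 17.2% of all genes. The groups did not overlap for 1 replication gene and 0 mitotic genes, against 2.69% of genes above 0. The medians in the fit of all 40 were -0.20 for the replication genes and 0.19 for the mitotic genes, beside -0.08 over all genes. Without HFKO library 5 they were -0.28 and -0.04, beside -0.10, so that the mitotic median changed sign, and the counts of called genes stayed at 1 and 0. The mean of the mitotic genes in HFKO leans on library 5: across the 23 genes it held 1.46 to 3.08 times the mean of the other 4 libraries, with a median of 2.33, and across the 17 replication genes 0.895 to 2.29 times, with a median of 1.45. Cdc20, for example, was at 13.3 FPKM in that library and at 4.32 to 7.29 in the other 4. In the same library the macrophage markers summed to 1561 FPKM, the stellate cell markers to 146, the endothelial markers to 82.7 and the B cell markers to 10.95, each the highest of the HFKO group, and the hepatocyte markers to 34386, the lowest. The T cell (11.8 FPKM), cholangiocyte (296) and erythroid (122) marker sums of this library were not the highest of the HFKO group. The depth of HFKO library 5, at 19057061 fragments, was the median of its group. The part of these markers in its values was not tested. Between the genotypes on CDAHFD no marker of the 8 lists was called by limma.

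Whether the diet acted differently in the 2 genotypes was tested as an interaction (the log2FC by genotype label on CDAHFD minus the one on control diet). These comparisons share libraries: each genotype comparison uses the groups of the diet comparisons. limma called 0 of 15 replication genes and 0 of 20 mitotic genes (0.647% of all genes), while 4 and 7 of them had an unadjusted p under 0.05, as did 15.1% of all genes. The interaction was 0.74 ± 0.22 (SE, FDR = 0.113) for Cdc25a, 0.70 ± 0.25 (SE, FDR = 0.183) for Mcm2 and 1.79 ± 0.60 (SE, FDR = 0.157) for Ccnb2. Without NDKO library 3 that of Cdc25a was 0.88 and was called (FDR = 0.0435). The median over the mitotic genes in the fit of all 40 was 0.68 beside -0.04 over all genes, and 0.50 beside -0.06 when HFKO library 5 was left out, where 2 of the 23 genes had an unadjusted p under 0.05 in place of 6. Without NDKO library 5 the median went the other way, to 0.77 beside -0.03. There 12 of the 23 genes had an unadjusted p under 0.05, and limma called 0 of them. Without a call on any of them, a different response to the diet was not shown.

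Pcna was the only one of the 40 genes called lower in the libraries labelled TSP-1 null on both diets. Its log2FC was -0.64 ± 0.07 (SE, FDR = 3.60e-05) on control diet and -0.89 ± 0.07 (SE, FDR = 4.71e-07) on CDAHFD. All NDKO libraries (5.24 to 5.65 FPKM) were below all NDWT libraries (8.28 to 9.74), and all HFKO libraries (11.5 to 15.9) were below all HFWT libraries (22.7 to 24.3). Pcna-ps2, a processed copy of Pcna on chromosome 19 (9283238 to 9284494, plus strand, GRCm38), moved the other way. It was at 0.103, 0.286, 0.045, 0 and 0.12 FPKM in NDWT livers, 2.27, 1.51, 2.0, 2.34 and 1.53 in NDKO livers, 0.399, 0.675, 0.824, 0.718 and 0.736 in HFWT livers and 4.504, 3.66, 4.69, 4.19 and 3.84 in HFKO livers. Its log2FC by genotype label was 3.39 ± 0.26 (SE, FDR = 9.45e-08) on control diet and 2.497 ± 0.26 (FDR = 1.11e-05) on CDAHFD.

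The copy and the gene have 565 of the 2426 distinct 31-base stretches of Pcna transcripts in common, so reads can be divided between them and the value of each is uncertain. Added together, with each library scaled to the same total (per 1000000 fragments), Pcna and Pcna-ps2 held 20.8 ± 1.64 in NDWT livers, 15.6 ± 0.225 in NDKO livers, 57.0 ± 1.58 in HFWT livers and 35.7 ± 4.09 in HFKO livers (SD, n = 5). The sum was 25.1% lower in NDKO than in NDWT and 37.3% lower in HFKO than in HFWT, and in each case the groups did not overlap (exact two-sided permutation test, p = 0.00794, the smallest that 5 against 5 mice allow, and 0.00794 after adjustment over 4 comparisons). On this scale Pcna-ps2 gained 2.29 between the control groups where Pcna lost 7.52, and 4.41 where Pcna lost 25.7 on CDAHFD. Pcna lies on chromosome 2 (132249162 to 132253314, minus strand), 14.1 Mb from Thbs1. The other members on chromosome 2 lie 9.67 Mb (Bub1), 34.7 Mb (Tpx2), 36.4 Mb (E2f1), 46.6 Mb (Ube2c) and 54.2 Mb (Aurka) from it.

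**Figure D5:**
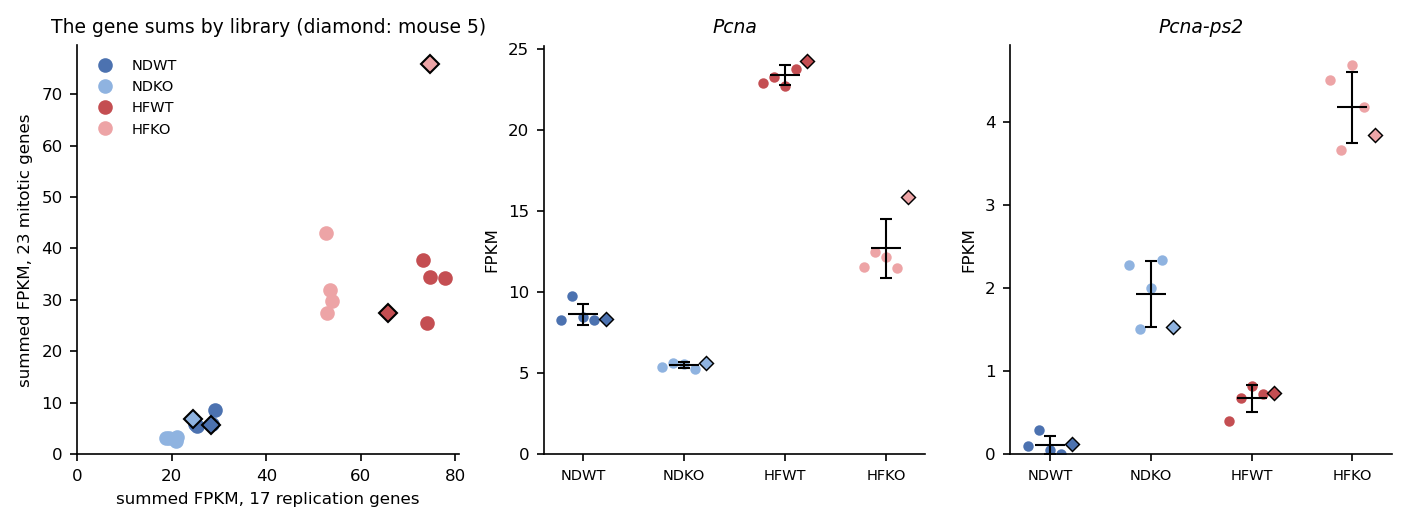
Left, summed FPKM of the 23 mitotic genes (y axis) against that of the 17 replication genes (x axis), 1 point per library, with mouse 5 of each group as a diamond. Middle and right, FPKM of Pcna and of its processed copy Pcna-ps2 by group, with mean ± SD (n = 5). HFKO library 5 lies at 75.8 on the mitotic axis, and the Pcna and Pcna-ps2 groups separate by genotype label in opposite directions.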

How the data were processed

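RNA-seq of 20 mouse livers was analysed from the table of FPKM per gene that the authors deposited. Per the submitters' processing notes, reads were aligned with STAR 2.5.2 and counted with featureCounts (Subread 1.5.1). The notes name a human genome build, but the gene coordinates of the table are those of mouse GRCm38. How strand and reads with several matches were counted is not given in the sources used here. FPKM times gene length was a whole multiple of 1 value in every library (100% of the genes checked, within 0.05), which gave the fragments quoted. They cover counting error only. No 2 libraries of a group agreed within sampling noise. Groups were taken from the sample labels. The comparisons were fitted in 1 model of all 20 libraries with limma 3.58.1 (R 4.3.3) and a mean-variance trend on log2(FPKM + 0.1), for genes above 0.5 FPKM in at least 5 libraries. The added constant understates the change of low genes. FDR is Benjamini-Hochberg over all genes tested. The model was tested on simulated data. Sequences and motifs are from the RefSeq tables for GRCm38.p6.

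The 40 genes, the further genes and the marker lists were chosen with earlier results of these data known. All 40 genes could be named. Values per library were given for the gene of each role with the highest mean FPKM and the one with the largest log2FC with diet in WT, for genes called by genotype (at most 6 per comparison, by FDR), for Pcna-ps2 and for Thbs1. Of the further genes, at most 3 in each direction per comparison were eligible, by FDR. Alternatives were other constants, filters, scalings and variance models, a block for the mouse number, and leaving out each mouse. The fit of all genes above 0 without HFKO or NDKO library 5 was added after seeing the data.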

Additional observations from a re-analysis of the deposited data

Results flagged for a closer look

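Within the groups of 5, 168 sets of values were examined for a library far from the other 4 (a gap of more than 0.71 of the group's range), and 24 were found, where about 8 would be found by chance. In 14 of them the library was HFKO library 5 and in 4 it was NDKO library 5.

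HFKO library 5 was far above the other HFKO libraries for the replication genes Mcm3 (7 FPKM, next highest 4.25), Mcm5 (4.71), Mcm6 (7.31), Pcna (15.9), Pole (0.668), Rrm2 (3.60) and E2f1 (3.18), and for the summed replication genes (74.6, next highest 54.0). It was equally apart for the mitotic genes Mki67 (5.05), Aurkb (2.03), Plk1 (5.07), Birc5 (1.96), Kif20a (3.25) and Foxm1 (2.12). Macrophage, stellate cell, endothelial and B cell markers were also highest and hepatocyte markers lowest in this library, as given above. T cell, cholangiocyte and erythroid markers were not highest in it.

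NDKO library 5 was apart from the other NDKO libraries for Cenpf (0.087 FPKM), Tpx2 (0.201), Cdkn3 (0.256, with the other 4 libraries at 0) and the summed mitotic genes (6.87, next highest 3.29). NDWT library 2 was apart for Pcna (9.74), Ube2c (0.553), Tpx2 (0.512) and the summed mitotic genes (8.62, next highest 5.88). NDKO library 4 was high for E2f2 (0.205) and HFWT library 5 was low for Mcm3 (3.71, next lowest 5.09).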

How the results depend on the processing

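Of 76 calls of a member in a comparison, 50 kept their call and direction under each of the 32 alternatives in which the gene was tested. A gene that an alternative left untested was not counted as a lost call, though it lowers the counts of called genes. Calls were lost with a constant of 1 (15), quantile normalization (19), median of ratios scaling (9), no filter (2), only the groups compared in the fit (2), no variance trend (1), the replicate block (2) and in some fit without 1 mouse (6). Quantile normalization turned Mcm7 (-0.0687, FDR = 0.524) and Cdc45 (-0.45) in the diet comparison of the libraries labelled TSP-1 null, and Cdc45 (-0.35), Aurka (-0.39) and Plk4 (-0.51) in that of WT. It left 12 of 19 mitotic calls in the WT diet comparison. That method forces the same distribution on libraries of both diets.

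The genotype comparison on control diet moved most. Its 6 replication genes became 0 with a constant of 1 and 3 with median of ratios scaling or quantile normalization, and 4 to 7 without 1 mouse. Its count of 2 mitotic genes became 0 with a constant of 1 or quantile normalization, 1 without a filter, and 1 to 7 without 1 mouse (7 without NDKO library 5). It was also 1 with FPKM above 1, where neither Plk4 nor Aurkb was tested. With a mean above 0.5 it was 1, and Plk4 was not tested. Without 1 mouse the replication genes called in the interaction numbered 0 to 1. In the WT and null diet comparisons the counts without 1 mouse were 14 and 12 to 14 for replication genes and 18 to 20 and 19 to 20 for mitotic genes.

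Mice of the same number did not deviate together (r -0.133 to 0.0812, 0 pairs over 0.1), so the number does not pair them. With the replicate block the control diet genotype comparison held 5 replication and 3 mitotic genes, against 6 and 2, and on CDAHFD 1 and 0. In the fit of all genes above 0, leaving out HFKO library 5 or NDKO library 5 (a choice made after seeing the data) gave 3 and 2 mitotic genes lower on control diet, against 1 with both. Of all genes, 399 of 25376 and 452 of 25480 were lower in these fits, against 396 of 25536 with both. Low counts limit the mitotic genes on control diet, where several rest on fewer than 10 fragments per library.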
